A study of Mus musculus with 16 samples.

Results

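Long non-coding RNAs that are known to remain in the nucleus were followed across the cell clusters of mouse spinal cord: Malat1, Neat1, Meg3, Snhg11, Snhg14, Rian, Mirg and Miat. They were chosen by name, as 8 of the 55487 gene rows of the deposited matrix, and all 8 had counts. Their levels were described in each of 17 cell clusters and in each mouse, and set against the share of mitochondrial UMIs of the cells (percent.mt), which the authors used as a quality measure. UMIs, unique molecular identifiers, stand for single captured RNA molecules.

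The cells came from spinal cord around a dorsal column lesion at the cervical level, dissociated from single mice. Each mouse gave 1 library, made with the 3′ chemistry of 10x Genomics. Mice with the alleles Rykfl/fl,GFAPcreERT2 (cKO) were compared with Ryk+/+,GFAPcreERT2 mice (WT), uninjured or at 1, 7 and 14 days after injury, at 8 to 10 weeks of age, with 2 mice per condition. Both genotypes carried a tamoxifen-inducible Cre driven by a GFAP promoter, so recombination is directed at astrocytes. The methods give tamoxifen daily for 7 days without naming a genotype, and the labels name no strain. The labels call the uninjured mice Sham, while the paper calls them uninjured. Actinomycin D, which blocks transcription, was in the dissociation buffers of all samples, and dead cells were removed with magnetic beads.

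As background, most of these RNAs act where they are made. Malat1 collects in nuclear speckles, which hold splicing factors, and the long form of Neat1 is the scaffold of paraspeckles. Meg3, Rian and Mirg are read from the maternal copy of the imprinted Dlk1-Dio3 region, Snhg14 from the paternal copy of the Prader-Willi and Angelman region, and Miat is a nuclear RNA of neurons and other cells. RNA of the mitochondrial genome lies outside the nucleus.

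The deposited data held 18203 cells. Their 16 mice had 2 animal number series: 6 mice had numbers below 10000, all of them replicate 1 of the uninjured, 1 d and 7 d conditions, and the other mice had numbers of 10000 and above. WT 1 d replicate 2 had 1 cell with 266 UMIs and was left out, which left 15 mice, 9 of them with numbers of 10000 and above. These 15 mice had 536263 to 9008729 UMIs, with a median of 3032957. Replicate 1 of WT 1 d, WT 7 d, cKO 1 d and cKO 7 d were shallow, with medians of 414 to 548 UMIs per cell, against 1040.5 to 3637 in the other 11 mice. Those 4 libraries also shared cell barcodes: their 6 pairs shared 341 in all, 28 to 115 per pair, and 315 of them fell in the same cluster, while the other 99 pairs shared 53. For 6 mice, all replicate 2, the names of the cells give another condition than the sample titles. The titles were followed here, and the conditions of the cell names were used as an alternative.

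The clusters are named as the authors named them, and most labels matched the fixed markers. Cluster 2, labelled astrocytes, had the highest mean level of the myelin gene Mbp (12076 UMIs per 1000000 UMIs, CPM) and of the neuronal gene Snap25 (772 CPM), and its Aqp4 level was 385 CPM against 1825 CPM in Cluster 5. Cluster 13, labelled unknown, was highest for all 4 ependymal markers, and Cluster 16, labelled myeloid cells, was highest for the neutrophil genes S100a8, S100a9 and Retnlg. These 2 are called here by number. Cluster 9, labelled pericytes, was also highest for all 3 smooth muscle markers, Acta2 (1421 CPM), Tagln (1156 CPM) and Myh11 (1087 CPM). Ryk, the targeted gene, was found in every mouse, at 45.0 to 82.4 CPM over all cells. In the astrocytes of Cluster 7, Ryk lay at 123 and 138 CPM in the uninjured WT mice and 78.3 and 192 CPM in the uninjured cKO mice. After injury it was 129 CPM at 1 d, 239 and 147 CPM at 7 d and 152 and 139 CPM at 14 d in WT mice. In cKO mice it was 36.1 and 117 CPM at 1 d, 56.1 and 138 CPM at 7 d and 165 and 153 CPM at 14 d. The genotypes overlapped over all mice and in the mice with numbers of 10000 and above. Below 10000 they did not, with cKO at 78.3 CPM or less, from 6, 1 and 2 UMIs, and WT at 123 CPM or more, from 36, 4 and 9 UMIs. These are few mice with few UMIs, and the share of all genes not overlapping between the genotypes was not counted. The tags come from the 3′ end of a transcript, and loss of the floxed exons was not checked.

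Malat1 was abundant in almost every kind of cell, and highest in Cluster 9, labelled pericytes. Its mean level, over mice with at least 10 cells in the cluster, was 41463 ± 7488 CPM there (SD, n = 15), which is 4.15% of all UMIs of these cells. The lowest mouse had 30632 CPM, the median was 40936 CPM and the highest mouse had 56305 CPM. Pericytes exceeded the mean of the other clusters in 15 of 15 mice, on average 1.80-fold (log2 0.85 ± 0.32 SD).

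After pericytes came the oligodendrocytes of Cluster 4 (35889 CPM), Schwann cells (35089 CPM), Cluster 13 (34784 CPM), the astrocytes of Cluster 7 (34086 CPM) and oligodendrocyte precursors (33984 CPM). Oligodendrocytes of Cluster 8 (29977 CPM), fibroblasts (28781 CPM), neurons (23103 CPM) and endothelial cells (22615 CPM) lay in the middle of the order. Immune cell types were lower, with 15775 CPM in Cluster 16, 15329 CPM in Cluster 12, 15027 CPM in the microglia of Cluster 6 and 10642 CPM in those of Cluster 10. Cluster 5 had 14650 ± 15206 CPM (SD, n = 14). At the bottom stood red blood cells (7904 CPM, n = 4), which have no nucleus, and Cluster 2 (5439 ± 6168 CPM, n = 11). Of the 16 pairs of neighbours in this order, 0 differed beyond their spread over mice.

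Neat1 followed another order, led by Schwann cells at 1120 ± 332 CPM (SD, n = 5). It was 1109 CPM in cKO 1 d, 1218 CPM in WT 7 d, 1237 CPM in cKO 7 d, 574 CPM in WT 14 d and 1464 CPM in cKO 14 d, from 1 mouse each. Each of these values was above the mean of the mouse's other clusters, 2.63-fold on average. Cluster 16 led instead with averages over cells (1038 against 994 CPM) and with at least 30 cells per mouse (1720 against 1237 CPM, each from 1 mouse). Cluster 16 (953 CPM), the oligodendrocytes of Cluster 4 (944 ± 389 CPM, n = 15) and the astrocytes of Cluster 7 (696 ± 256 CPM, n = 15) came next, and oligodendrocytes of Cluster 8 had 600.3 ± 359.8 CPM (n = 14). Microglia of Cluster 6 (148 ± 53.9 CPM) and Cluster 2 (121 ± 129 CPM) were at the low end. Again 0 of 16 neighbours differed beyond their spread. The clusters were made from these same counts, so the orders are descriptions with no test.

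**Figure D1:**
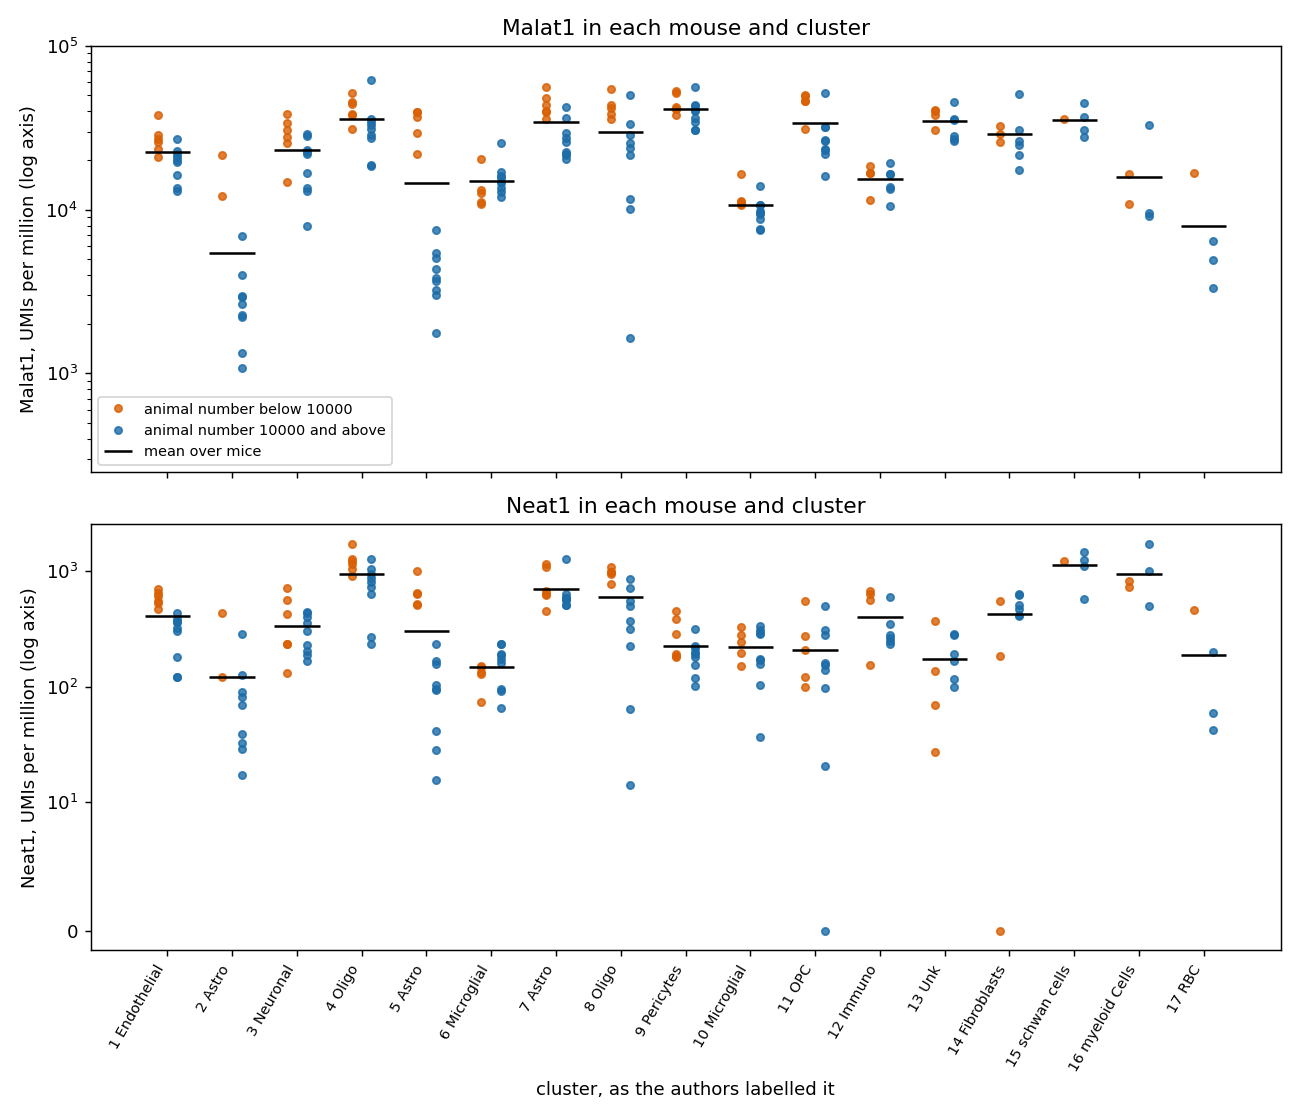
Malat1 (top) and Neat1 (bottom) in CPM on a log axis (for Neat1 linear under 10), by cluster; each point is 1 mouse with at least 10 cells in the cluster, coloured by animal number, and bars are means over mice. In Cluster 5 the 5 mice below 10000 lie at 21771 CPM of Malat1 or more and the 9 others at 7516 CPM or less.

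Malat1 in Cluster 5 differed widely between mice. In the mice with animal numbers below 10000 its level was 21771 CPM (WT uninjured), 39651 CPM (WT 1 d), 39677 CPM (cKO 1 d), 36589 CPM (WT 7 d) and 29490 CPM (cKO 7 d). In the 9 mice with numbers of 10000 and above it was 1762 CPM at the lowest, 3815 CPM at the median and 7516 CPM at the highest. The series did not overlap, and their means were 7.94-fold apart. Replicate 1 and replicate 2 of WT 7 d, for example, had 36589 and 4369 CPM.

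Neat1 did the same in Cluster 5, with 509, 994, 642, 516 and 640 CPM in those 5 mice against 15.6 to 233 CPM, median 96.1 CPM, in the 9 others. Snhg14 was separated the other way, at 0 to 35.5 CPM below 10000 and 41.6 to 129 CPM above, but the mice below 10000 had 0 or 1 UMI of it each, too few to place their levels. Of the 6 members with a mean of at least 50 CPM there, 3 did not overlap, Snhg14 among them. Of all genes at that level, 24.7% (857 of 3466) did not. In Cluster 2, Malat1 was 12047 and 21444 CPM in 2 mice below 10000, and 1073 to 6898 CPM in 9 mice above. The share of all genes not overlapping was not counted in Cluster 2, and 2 mice are few to place a series. Cluster 7 did not split as Cluster 5 did. Malat1 averaged 43873 CPM there in the 6 mice below 10000 and 27561 CPM in the 9 above, and the series overlapped. In endothelial cells Neat1 was the 1 member whose series did not overlap (469 to 698 CPM against 120 to 439 CPM), with 2.3% of genes (92 of 4005) not overlapping.

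Other properties of the Cluster 5 cells moved with the animal number. The median percent.mt per mouse ranged from 3.58 to 10.6 below 10000 and from 8.34 to 15.4 above, and the median UMIs per cell from 329.5 to 1514 and from 1106 to 2276.5. The summed level of the 5 astrocyte markers was alike in both series, 12370 to 18085 CPM below 10000 and 11018 to 18321 CPM above, with Slc1a2 the most abundant of them in both (5148 and 8235 CPM on average). None of the 5 was at 0 in any mouse. The 5 markers went both ways on average. Aqp4 (2981 against 1183 CPM), Gfap (2475 against 1232 CPM) and Gja1 (1407 against 799 CPM) were higher below 10000. Slc1a2 and Aldoc (2424 against 3348 CPM) were higher above. RNA of other cell types was higher above 10000: Mbp at 9764 against 1792 CPM and Snap25 at 634 against 62.8 CPM. The part of these differences in the Malat1 levels was not tested. Animal number, depth and, for these mice, replicate number cannot be told apart for the 1 d and 7 d conditions.

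Neurons stood out for the imprinted RNAs of the Dlk1-Dio3 region. Meg3, the first RNA of the maternal transcription unit, had 10257 ± 5850 CPM in neurons (Cluster 3, SD, n = 15). Its lowest neuronal value was 1543 CPM, its median 8900 CPM and its highest 20032 CPM, while Cluster 13, next in order, had 969 CPM on average. Neurons exceeded the mean of the other clusters in 15 of 15 mice, 39.3-fold on average.

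Rian, which carries clusters of small nucleolar RNAs, had 306 ± 144 CPM in neurons, with 177, 281 and 758 CPM as lowest, median and highest. Mirg, at the far end of the unit and host of many microRNAs, had 155 ± 100.2 CPM, from 29.5 to 396 CPM with a median of 113 CPM. Both were higher in neurons than in the mean of the other clusters in 15 of 15 mice, 7.00-fold for Rian and 10.3-fold for Mirg.

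The hosts of small nucleolar RNAs and Miat had the same leading cluster. Snhg11 was at 1709 ± 934 CPM in neurons, 467 to 3699 CPM with a median of 1401 CPM, 24.9-fold above the mean of the others. Snhg14, host of long arrays of small nucleolar RNAs and antisense to Ube3a, was at 949 ± 343 CPM, 349 to 1556 CPM with a median of 925 CPM, 15.8-fold higher. Miat was at 203 ± 68.0 CPM, 78.6 to 321 CPM with a median of 199 CPM, 11.3-fold higher. Neurons were higher in 15 of 15 mice for each. For each of these 6 members 1 of the 16 pairs of neighbours differed beyond the spread, that between neurons and the next cluster.

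**Figure D2:**
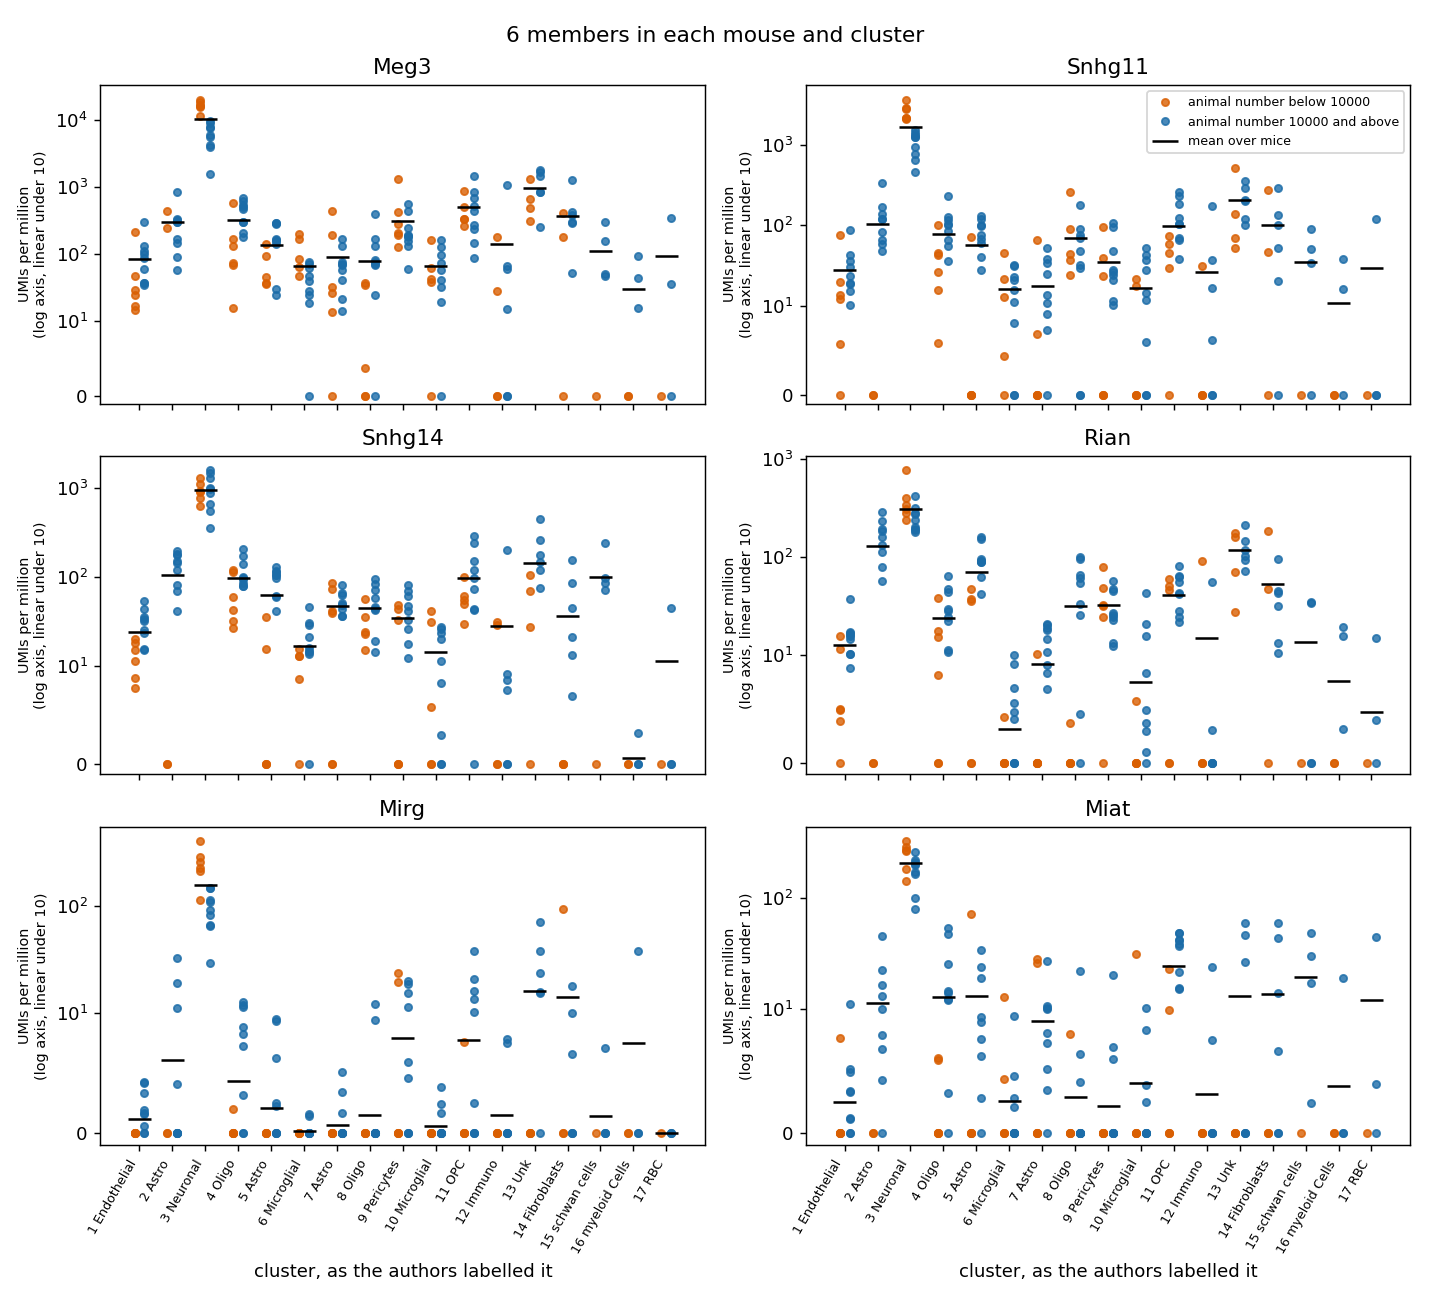
Meg3, Snhg11, Snhg14, Rian, Mirg and Miat in CPM (log axis, linear under 10), by cluster; each point is 1 mouse with at least 10 cells in the cluster, coloured by animal number, and bars are means. The highest bar in each panel is that of Cluster 3, the neurons, with 10257 CPM for Meg3.

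Within neurons the animal series differed for Meg3 and Snhg11. The 6 mice below 10000 had 11411 CPM of Meg3 or more, 16422 CPM on average, and the 9 others 1543 to 9823 CPM, 2.67-fold less on average. Snhg11 was 2097 to 3699 CPM against 467 to 1560 CPM. These were 2 of 8 members, with 4.11% of all genes (155 of 3772) not overlapping between the series in neurons. Snhg14 showed no such gap, at 618 to 1283 CPM and 349 to 1556 CPM.

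Rian and Meg3 did not keep 1 ratio across clusters. Neurons had 3.80 Rian UMIs per 100 Meg3 UMIs (95% interval 3.64 to 3.96, from 2331 and 61409 UMIs). Cluster 2 had 52.0 (43.2 to 62.6, from 178 and 342 UMIs) and Cluster 5 had 54.4 (46.9 to 62.9, from 285 and 524 UMIs). The intervals are exact and cover counting error only. The ratio was above that of the same mouse's neurons in 9 of 11 mice in Cluster 2 and in 12 of 14 mice in Cluster 5, where single mice had few UMIs of either RNA. Cluster 7 lay between, at 15.7 (11.4 to 21.1).

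Across the 17 clusters, neurons among them, the 6 members that were high in neurons varied together. Their shared lead in neurons is part of this correlation, and no value without neurons is given. Pearson's r of log2 mean CPM ran from 0.69 between Rian and Miat to 0.95 between Meg3 and Snhg11. Malat1 and Neat1 had r = 0.48, and the largest r of Malat1 with any of the 6 was 0.29, with Snhg14. Among 10193 genes, those whose pattern was most like Malat1 were Rab11fip2 (r = 0.90), Arid4b (0.89) and Nhlrc2 (0.86). For Neat1 they were Tom1, Sidt2 and Fam234a (0.78, 0.78 and 0.77), and for Meg3 they were Snhg11, Cntn5 and Cntnap2 (0.95, 0.95 and 0.93). Snhg11 was most like Cntnap5a (0.96), Lingo2 and Cdh12, and Snhg14 most like Srrm4 (0.94), Cntnap5a and Usp29. Rian was most like Celf4 (0.95), Cntnap1 and Gprasp2, Mirg most like Mmp24 (0.96), St6galnac5 and Trpc7, and Miat most like Nyap2 (0.95), Tcerg1l and Trpc5. The clusters share mice and libraries, so these values are descriptions.

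Genes near or related to the members differed in their leading clusters. Of the 6 genes of the Dlk1-Dio3 list, 5 were highest in neurons, but outside the members these counted few UMIs (30 for Rtl1 and 1 for Dio3), and Dlk1 was highest in Cluster 2 at 25.8 CPM. Of 7 genes of the Snhg14 region listed in the matrix, 2 were highest in neurons, Snhg14 and Magel2 (22 UMIs in all), while Snrpn was highest in Cluster 2 (243 CPM) and Ube3a in pericytes (181 CPM). Among 11 other small nucleolar RNA hosts, 0 were highest in neurons, and Gas5 led them in Cluster 2 with 754 CPM. Of 8 other nuclear long non-coding RNAs, 3 were highest in neurons: Kcnq1ot1 (704 CPM), Ftx (95.0 CPM) and Gm26917 (1089 CPM). Of 7 nuclear speckle protein genes 2 were highest in neurons (Srrm1 and Srrm2, 249 and 944 CPM) and 3 lowest in Cluster 2, and of 7 paraspeckle protein genes 0 were highest in neurons and 2 lowest in Cluster 2. Among all 10194 genes with a mean of at least 50 CPM in a cluster, 6.42% were highest in neurons and 9.95% lowest in Cluster 2. The listed speckle, paraspeckle and other nuclear long non-coding RNA genes all reached that level, but some genes of the other lists did not, so their counts are not over like genes.

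The members lie in groups on the genome (GRCm38, GENCODE). Malat1 and Neat1 are 22035 bases apart on the minus strand of chromosome 19, at chr19:5795690-5802672 and chr19:5824708-5845478. Meg3, Rian and Mirg follow each other on the plus strand of chromosome 12, starting at 109541001, 109603940 and 109729764, with gaps of 32213 and 68047 bases. Snhg11 (chr2:158375638-158386145), Snhg14 (chr7:59307924-59975759) and Miat (chr5:112213228-112229395) lie apart, and the annotation types Snhg11 as protein coding. By position, 26 mature microRNA forms lie in Mirg, 6 in Rian and 3 in Meg3. A pair of the mature forms in Mirg share a seed (bases 2 to 8, in capitals), and they are printed to show how the microRNAs of this host can overlap in target recognition. The sequences are from RefSeq, on mm10.
mmu-miR-453: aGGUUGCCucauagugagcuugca
mmu-miR-496a-5p: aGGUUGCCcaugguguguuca

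A 3′ library starts from oligo-dT, which can also pair with a run of A inside a transcript, so the longest such runs in the longest annotated transcripts are shown (GENCODE transcript sequences, 5′ to 3′, run in capitals). Malat1 held 12 A in a row starting at base 6674 of 6983, Rian 15 at base 5309 of 8089, Meg3 16 at base 420 of 14548 and Snhg14 17 at base 248 of 6861. The longest runs were shorter in Neat1 (7), Snhg11 (8), Mirg (5) and Miat (4). The counts do not say from which site a UMI came.
Malat1-201: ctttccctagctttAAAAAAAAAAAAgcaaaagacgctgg
Rian-201: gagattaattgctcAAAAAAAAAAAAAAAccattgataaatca
Meg3-209: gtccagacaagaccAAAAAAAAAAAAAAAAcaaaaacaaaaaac
Snhg14-211: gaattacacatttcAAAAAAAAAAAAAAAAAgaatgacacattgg

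Members were then compared between cells of higher and lower mitochondrial share. Each mouse and cluster was split at its median percent.mt, the ratio of a member's share of the non-mitochondrial UMIs was averaged over clusters within the mouse, and the log2 ratio was tested over 15 mice with limma. In 15 of 15 mice the cells of higher share had fewer non-mitochondrial UMIs: their median per mouse was 370.5 to 477.5 in the 4 shallow mice, against 441 to 598.5 in the cells of lower share, and 742 to 2609 against 1215 to 4926.5 in the 11 others. Malat1 had log2 ratios of −0.49 at the lowest and 0.16 at the highest, and 12 of 15 mice were below 0. Its mean was −0.12 ± 0.06 (SE), 0 being no difference. For Neat1 the range was −0.52 to 0.30, also below 0 in 12 of 15 mice, with a mean of −0.18 ± 0.08. Snhg11 was below 0 in 11 of 15 mice, with a mean of −0.26 ± 0.11.

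The means of the others were −0.05 ± 0.10 for Meg3, 0.10 ± 0.08 for Snhg14, 0.08 ± 0.08 for Rian and −0.13 ± 0.19 for Miat, and their mice fell on both sides of 0. Mirg had too few UMIs to be tested. With limma, 0 of the 7 members tested were called at an adjusted p under 0.05, where 6.27% of genes were called (602 of 9601; 3.47% lower and 2.8% higher in the cells of higher share) and the median log2 ratio of all genes was −0.05. The adjusted p was 0.227 for Malat1, 0.134 for Neat1 and 0.138 for Snhg11, and at an unadjusted p under 0.05 Neat1 and Snhg11 counted, 2 members. The share of all genes at that unadjusted p is not given. The exact sign-flip test over mice, two-sided, called 0 members and 10.4% of genes, and its unadjusted p was 0.0133 for Malat1, 0.0172 for Neat1 and 0.0284 for Snhg11.

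**Figure D3:**
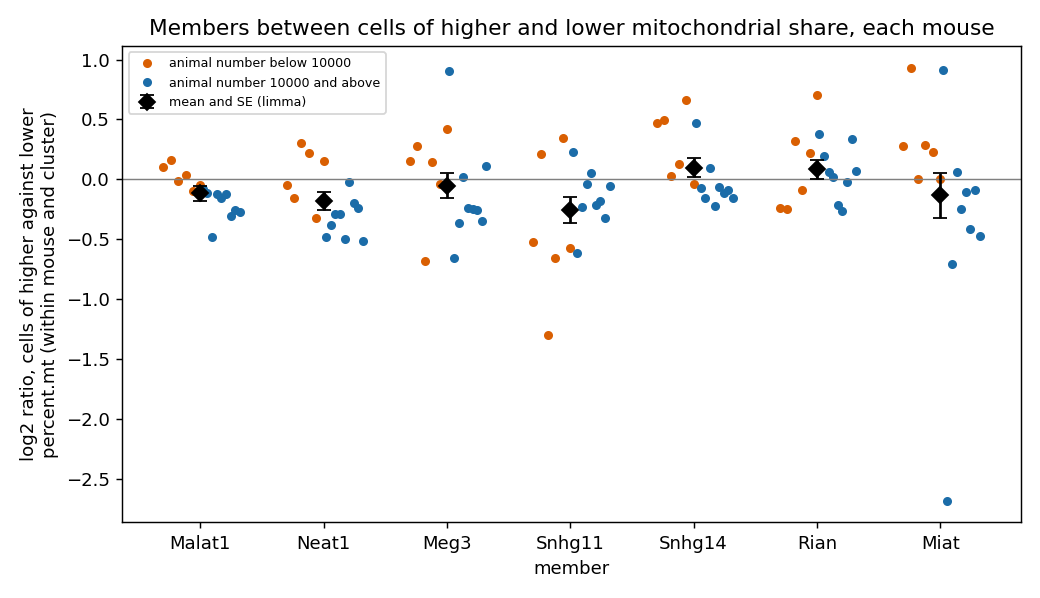
Log2 ratio of each of the 7 members tested between cells of higher and lower percent.mt of the same mouse and cluster; points are mice, coloured by animal number, and diamonds are means with their SE. All 9 mice with numbers of 10000 and above lie below 0 for Malat1 and for Neat1, whose means over 15 mice are −0.12 and −0.18.

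The result changed with the mice and the threshold. In the 9 mice with animal numbers of 10000 and above, a subset chosen after seeing the data, Malat1 (−0.21 ± 0.07, adjusted p = 0.0446 by limma) and Neat1 (−0.32 ± 0.08, adjusted p = 0.02005) fell in 9 of 9 mice and were called, beside 18.5% of all genes (1634 of 8839). In the 6 mice below 10000 both had log2 ratios of 0.02, lower in 3 of 6, and 0 genes of 4428 were called, so the series differ in what was called, but the difference itself was not tested. With cells at 10% or more set against cells under 5%, Malat1 (−0.88 ± 0.23, lower in 13 of 14 mice), Neat1 (−0.72 ± 0.21, 10 of 14) and Meg3 (−0.71 ± 0.24, 9 of 14) were called, beside 24.4% of genes and against a median of −0.20 over all genes. With each cell thinned to 500 non-mitochondrial UMIs, Neat1 alone was called (−0.41 ± 0.10, lower in 13 of 15 mice, beside 8.94% of genes). Over all alternatives, adjusted p by limma ran from 0.00549 to 0.951 for Malat1 and from 0.0134 to 0.955 for Neat1. Without WT 7 d replicate 2 the number of genes called was 191 (80 lower and 111 higher), the fewest of the 15 fits that left out 1 mouse. In that fit 0 members were called. The balance of directions changed with the setting. The main fit had 333 genes lower and 269 higher. With all UMIs as the denominator these were 902 and 158, and with strata of at least 50 cells 68 and 87.

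Single clusters differed in the size of the Malat1 ratio. Endothelial cells had a lower share of Malat1 in the cells with more mitochondrial RNA in 15 of 15 mice (mean log2 −0.39 ± 0.35 SD), and microglia of Cluster 6 in 14 of 14 mice (−0.25 ± 0.19). Cluster 5 was lower in 10 of 14 mice (−0.37 ± 0.52). Oligodendrocytes of Cluster 8 were lower in 11 of 14 mice (−0.91 ± 1.14) and microglia of Cluster 10 in 10 of 12 (−0.82 ± 1.27), with wide spread. Astrocytes of Cluster 7 were higher in 8 of 15 mice (0.12 ± 0.40), and neurons were lower in 7 of 14 (−0.07 ± 0.37).

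In endothelial cells of the mice with numbers of 10000 and above, Malat1 went down stepwise with percent.mt. Cells under 2% had 22947 ± 3880 UMIs per 1000000 non-mitochondrial UMIs (SD over 9 mice), cells at 2 to 5% had 19813 ± 2905 (9 mice), and cells at 5 to 10% had 9485 ± 4233 (9 mice). At 10 to 15% the level was 4430 ± 2957 (5 mice) and at 15 to 25% it was 2845 ± 1076 (7 mice, 225 cells). In the mice below 10000 it was 30728, 27073 and 24039 in the first 3 of these bins. Bins of 1 mouse need at least 10 cells.

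The endothelial markers went down in the same cells. Cldn5, a tight junction gene, was 2659 under 2% and 116 at 15 to 25%, in the same unit, in the mice with numbers of 10000 and above, and Flt1 was 6424 and 404. The astrocyte gene Slc1a2 went from 114 to 4446 and the myelin gene Mbp from 1871 to 10898, while the median number of non-mitochondrial UMIs per cell went from 5453 to 579. In the mice below 10000, Cldn5 was 2880 under 2% and 3211 at 5 to 10%. The part of these changes in the Malat1 levels was not tested.

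In bins, Cluster 5 and Cluster 7 differed from endothelial cells. In Cluster 5 of the mice with numbers of 10000 and above, Malat1 was low in every bin: 6068 under 2%, 4089 at 2 to 5%, 4880 at 5 to 10%, 4439 at 10 to 15% and 3828 at 15 to 25%, in the same unit. At the same percent.mt, the mice below 10000 had 44596 (2 to 5%, 4 mice) and 36062 (5 to 10%, 3 mice). Single mice had 1181 to 11581 above 10000 and 34400 to 51096 below at 2 to 5%, and 1754 to 8317 and 34340 to 37574 at 5 to 10%. The series did not overlap in these bins, where the median number of non-mitochondrial UMIs per cell was 2119 and 342, and 1376 and 354. In Cluster 7 of the mice with numbers of 10000 and above, Malat1 was 23638 under 2%, 28041 at 2 to 5%, 34325 at 5 to 10% and 58064 at 10 to 15%, the last from 2 mice with 22 cells.

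**Figure D4:**
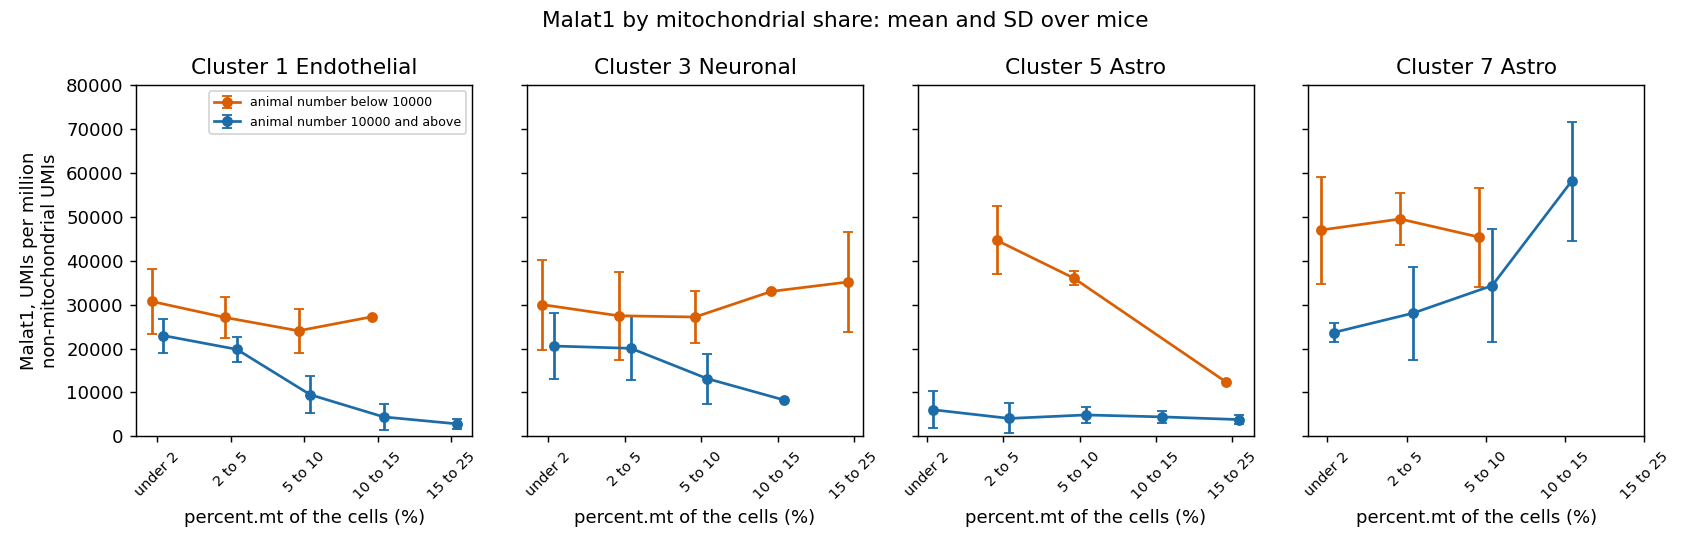
Malat1 UMIs per 1000000 non-mitochondrial UMIs in 4 clusters against the percent.mt of the cells in 5 bins; points are means over mice with at least 10 cells in the bin, bars are SD (none for 1 mouse), coloured by animal number. In Cluster 1 the mice with numbers of 10000 and above run from 22947 to 2845, and in Cluster 5 they are at 6068 or less in all bins.

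Correlations describe the same data without bins. Over cells within a mouse and cluster, the median Spearman's rho between percent.mt and the share of Malat1 was −0.10, negative in 83 of 117 strata with at least 50 cells, and for Neat1 it was −0.08. For the other members the medians lay between −0.05 and 0.00. Cells of a stratum share a library, and such weak values in sparse counts are no finding. Over the 17 clusters, rho between median percent.mt and mean CPM was 0.04 for Malat1 and −0.23 for Neat1, and 0.44 for Malat1 without Clusters 2 and 5. Clusters 2 and 5 had the highest medians of percent.mt, 11.3 and 10.7, against 1.29 to 3.79 in the other 15.

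Some cells had no Malat1 UMI at all. To make depths alike, 500 UMIs were drawn from each cell that had as many, and the other cells were not used. Malat1 was then missing from 37.4% of 1183 cells of Cluster 2 and 29.1% of 1609 cells of Cluster 5, but from 3.90% of 2310 neurons and 0.126% of 794 cells of Cluster 7. Red blood cells, which should lack it, were without Malat1 in 24.8% of 109 cells. As deposited, the median depths of Clusters 2, 5 and 17 were 834, 1377 and 1339 UMIs. The shares without Malat1 are pooled over mice that differed widely, and they set no order between Clusters 2, 5 and 17. The red blood cells came from few mice, and the background of each library and doublets were not examined.

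The animal series did not overlap here in Cluster 5 and in endothelial cells. The share of all genes not overlapping was not counted on this measure. In CPM, 24.7% of genes at 50 CPM or more did not overlap in Cluster 5. In endothelial cells the series overlapped for Malat1 in CPM. In Cluster 2, 7.49 to 60.6% of the thinned cells of a mouse were without Malat1 in the mice with numbers of 10000 and above. The 1 mouse below 10000 there, with 11 such cells, lay inside this range at 27.3%. In Cluster 5, 17.6 to 52.0% of the thinned cells of a mouse were without Malat1 in the 9 mice with numbers of 10000 and above, with a median of 22.9%, and 0 to 2.86% in 4 mice below 10000, which had 82 such cells. Pooled over mice, the median percent.mt of cells without and with Malat1 was 13.02 and 10.8 in Cluster 5 and 13.4 and 10.8 in Cluster 2. Within mice, it was higher in the cells without Malat1 in 3 of 9 mice in Cluster 5 and in 6 of 9 in Cluster 2, so the pooled difference was not shared by all mice. In endothelial cells 6.07 to 33.1% of the thinned cells per mouse were without Malat1 above 10000 and 0 to 4.35% below. All endothelial cells above 10000 had at least 500 UMIs, but in the 4 shallow mice only the deeper ones did. These were 106 of 359 cells in WT 1 d and 98 of 353 in WT 7 d. In cKO mice they were 121 of 418 at 1 d and 122 of 364 at 7 d. In Cluster 5 they were 15 of 65 (WT 1 d), 12 of 45 (WT 7 d) and 20 of 57 (cKO 7 d). The series were thus compared on unlike cells. Below 10000 the endothelial values other than 0 were 3.69 and 4.35%, both from uninjured mice, which kept all their endothelial cells. Above 10000 the 2 uninjured mice were highest: 32.5 and 33.1% in endothelial cells, against 6.07 to 11.1% in the 7 injured mice, and 50.8 and 52.0% in Cluster 5, against 17.6 to 27.7%. By its cell names 1 of these 2 mice, cKO uninjured replicate 2, would be a WT mouse at 7 d. Over all cells, the 2 uninjured mice above 10000 also had lower median UMIs per cell, 1057 and 1040.5 against 1514 to 3637 in the 7 injured mice. Their median percent.mt was higher, at 5.33 and 6.31 against 1.89 to 4.84. The parts of injury, depth and percent.mt were not tested.

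UMIs of the neuronal members were counted in the same thinned cells. Since the background of each library was not examined, the shares outside neurons do not show which cells made the RNA. Meg3 had a UMI in 71.4% of neurons, 9.82% of Cluster 5, 13.2% of Cluster 2 and 12.8% of red blood cells. Snhg11 was found in 38.5% of neurons and 1.83% of red blood cells, and Snhg14 in 31.7% and 7.34%. Rian was found in 11.6% of neurons, 6.76% of Cluster 2, 4.72% of Cluster 5 and 0.756% of Cluster 7. Among red blood cells, 0 of 109 thinned cells had Rian, and 4 of 119 cells as deposited. Mirg was found in 4.98% and Miat in 7.10% of neurons.

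The first comparison of conditions asked which members differ after injury, averaged over 1, 7 and 14 d and both genotypes, in 6 clusters with many cells. In Cluster 5, Meg3 was 46.3, 30.5 and 24.96 CPM in 3 uninjured mice, and 35.5, 157 and 297 CPM as lowest, median and highest value of the 11 injured mice. In the astrocytes of Cluster 7, Malat1 was 35606, 29289, 39609 and 36251 CPM in 4 uninjured mice and 20475 to 56443 CPM in the 11 injured ones. In neurons, Meg3 was 11411, 4217, 15683 and 1543 CPM uninjured and 3977 to 20032 CPM after injury. In all of these the groups overlapped. For Meg3 in Cluster 5 the overlap rested on few UMIs, 3 at 46.3 CPM and 1 at 35.5 CPM.

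By edgeR, 0 members were called after injury in any of the clusters, over 37 tests of a member in a cluster, with 1 at an unadjusted p under 0.05 (Meg3 in Cluster 6). Its log2 change was 3.93 ± 1.77. Meg3 was 47.4 and 28.4 CPM in the uninjured WT mice there, and 19.0 to 198 CPM after injury. The uninjured cKO mouse had 0 UMIs of it in 22 cells. DESeq2 also called 0, with 4 at an unadjusted p under 0.05. The share of all genes called was 0 in Clusters 1, 4, 5 and 6, 0.00977% in neurons (1 of 10238) and 0.226% in Cluster 7 (18 of 7966), so few genes of any kind passed with all mice. In the mice with animal numbers of 10000 and above alone, more genes were called: 1.76% in Cluster 1 (202), 4.14% in neurons (545), 0.503% in Cluster 4 (48), 1.55% in Cluster 5 (113), 0 in Cluster 6 and 0.999% in Cluster 7 (73). Of 39 member tests there, 12 had an unadjusted p under 0.05 and 1 was called, that of Meg3 in Cluster 5. The share of all genes at an unadjusted p under 0.05 is not given, so such counts do not set the members apart. The tests in this subset also share the same uninjured mice. With all mice, the estimates of Malat1 ran from −0.41 ± 0.37 in Cluster 6 to 0.46 ± 0.85 in Cluster 5 on the log2 scale. Those of Neat1 ran from −0.25 ± 0.37 in neurons to 1.49 ± 0.84 in Cluster 5. In these fits with all mice, the median log2 change of all genes tested was −0.82 in neurons and −0.25 in Cluster 5.

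Meg3 in Cluster 5 was called in that subset alone. Its estimate was 1.54 ± 0.78 (adjusted p = 1.00), but in the mice with animal numbers of 10000 and above, where 2 uninjured mice had 30.5 and 24.96 CPM and 7 injured mice had 143 to 297 CPM, it was 2.30 ± 0.39 and called (edgeR, adjusted p = 1.81e-06, higher in 7 of 7 injured mice). The uninjured values rested on 11 and 8 UMIs of Meg3, and the injured ones on 15 to 143. Over the other alternatives the adjusted p ran from 0.640 to 1.00. By its cell names cKO uninjured replicate 2 (24.96 CPM) would be a WT mouse at 7 d, which would leave 1 uninjured mouse in the subset. Over all cells, Meg3 was 487 and 214 CPM in the 2 uninjured mice and 671 to 2065 CPM in the 7 injured mice. Median UMIs per cell over all cells were lower in the uninjured mice, 1057 and 1040.5 against 1514 to 3637. Median percent.mt was higher, 5.33 and 6.31 against 1.89 to 4.84. Within Cluster 5 the groups overlapped in both measures. The part of these differences in the Cluster 5 level of Meg3 was not tested.

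By the sample titles, Neat1 was higher at 1 d in the astrocytes of Cluster 7. In Cluster 5 its levels at 1 d overlapped those of the other mice. In Cluster 7 Neat1 was 1095, 1154 and 1275 CPM in the 3 mice at 1 d, and 451 to 673 CPM in the 12 other mice. By the titles, the mice at 1 d lay above all others. By its cell names WT 7 d replicate 2 (576 CPM) would be a mouse at 1 d, and the groups would overlap. Among the 3 members at 50 CPM or more there, Neat1 was the 1 that did not overlap, and 2.06% of all genes (73 of 3541) did not. In the microglia of Cluster 6, Neat1 was 233, 189, 192 and 233 CPM in the 4 mice at 14 d and 66.2 to 174 CPM in the 10 others, where 0.166% of genes (6 of 3617) did not overlap. Both patterns were chosen after seeing the values and have no test of their own. By its cell names cKO 14 d replicate 2 (233 CPM) would be a mouse at 7 d, and these groups would overlap as well. All mice at 14 d had animal numbers of 10000 and above.

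The second comparison asked which members differ in cKO against WT after injury. In Cluster 7, Malat1 of the WT mice was 56443 CPM at 1 d, 47776 and 21958 CPM at 7 d and 42520 and 25883 CPM at 14 d. In the cKO mice it was 43602 and 27538 CPM at 1 d, 40202 and 22554 CPM at 7 d and 21577 and 20475 CPM at 14 d. The genotypes overlapped, with a log2 difference of −0.47 ± 0.27. In neurons, Neat1 of the WT mice was 132 CPM at 1 d (1 UMI), 714 and 187 CPM at 7 d and 203 and 447 CPM at 14 d. In the cKO mice it was 235 and 435 CPM at 1 d, 423 and 354 CPM at 7 d and 305 and 404 CPM at 14 d.

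By edgeR, 0 members were called between the genotypes in any of the 6 clusters, with 2 of 37 under an unadjusted p of 0.05: Neat1 in neurons (log2 1.06 ± 0.49) and Snhg11 in Cluster 7 (3.62 ± 1.54). By DESeq2 the calls were 0 as well, with 1 under an unadjusted p of 0.05. The share of all genes called was 0 in 5 clusters and 0.0126% in Cluster 7 (1 of 7966). In neurons the median log2 difference of all genes tested was itself 2.01, so Neat1 lay under it; the single WT mouse at 1 d gave 18 neurons with 7570 UMIs. Snhg11 in Cluster 7 rested on 0 to 22 UMIs per mouse. Leaving out each mouse in turn, Neat1 in neurons ranged from 0.24, without WT 1 d replicate 1, to 1.31, and Snhg11 in Cluster 7 from 1.43, without cKO 1 d replicate 2, to 3.90.

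Conditions taken from the cell names gave 1 call: Meg3 in Cluster 7, with a log2 difference of 1.43 ± 0.35 (edgeR, adjusted p = 0.0427) beside 0.251% of genes (20 of 7966), against 1.12 ± 0.58 with the conditions of the titles. In the mice with animal numbers of 10000 and above the estimate was −0.07 ± 0.33, and without cKO 1 d replicate 2 it was −1.61 ± 2.39. Adjusted p over the other alternatives ran from 0.630 to 1.00. The last contrast asked whether the injury response differed between genotypes. By edgeR it called 0 of 37 members over the 6 clusters, with 0 under an unadjusted p of 0.05, and by DESeq2 both counts were 0 too. All genes called were 0 in 5 clusters and 0.0251% in Cluster 7.

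The fixed lists around the members gave no call in these comparisons either: 0 genes of the 7 lists were called after injury or between genotypes in any of the 6 clusters. In Cluster 7 after injury, the median log2 change was 0.24 for 6 paraspeckle protein genes and −0.25 for 7 nuclear speckle protein genes, beside −0.14 for all genes. For 6 other nuclear long non-coding RNAs it was −0.05 and for 5 other small nucleolar RNA hosts it was −0.25.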

How the data were processed

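The authors aligned to mm10 by Cell Ranger, filtered at 25 percent mitochondrial UMIs (upper limit) and 200 genes (lower limit), and deposited raw UMI counts without normalization. The deposited percent.mt is in percent and equals the share of 37 mitochondrial genes in all 18203 cells. Counts were summed per mouse and cluster (at least 10 cells, at least 50 per mouse) and given per 1000000 UMIs (CPM); log2 ratios of levels add 10 CPM. Conditions were tested with edgeR 4.0.16 (TMM, filterByExpr, quasi-likelihood fit of group means) in R 4.3.3, with DESeq2 1.42.0, no filter, a replicate block, other cell minimums and subsets of mice as alternatives, and the mitochondrial split with limma 3.58.1 on Mantel-Haenszel log2 ratios (strata of at least 20 cells, 0.5 added, genes with at least 20 UMIs in at least 10 mice), all adjusted by Benjamini-Hochberg over all genes, threshold 0.05. Python 3.11.15 was used for the rest. Named genes are the 8 members, fixed lists and, per member, the 3 genes most alike over clusters; other genes named were chosen after their values were seen. Members and lists were chosen with earlier results of these data known. The methods were tested on simulated data. The batch column held the same number as the replicate for 16 of 16 mice; as a check of this pairing, deviations of same-numbered mice from their group means correlated between conditions with medians of 0.0179 to 0.189 per cluster. Free RNA and doublets were not removed here. Intervals are exact at 95%. Results for some listed genes are not reported here.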

Additional observations from a re-analysis of the deposited data

How the results depend on the processing

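Leading clusters kept their lead in 30 of 32 alternatives (averages over cells, non-mitochondrial denominator, at least 30 cells, animal numbers of 10000 and above); the 2 others, averages over cells and at least 30 cells, put Cluster 16 before Schwann cells for Neat1. Of the ratios to the other clusters 32 of 32 moved by less than 1 SD over mice. Of 544 mean levels, 23 moved by more. Members called stood at 0 in 101 of 106 alternatives; with the replicate block the number was 0 in all 6 clusters for both comparisons, and leaving out each mouse in turn gave 0 to 0 in every cluster and for the mitochondrial split. The exceptions were 1 member after injury in Cluster 5 (animal numbers of 10000 and above), 1 for cKO against WT in Cluster 7 (conditions of the cell names), and for the mitochondrial split 3 (10% against 5%), 1 (thinned cells) and 2 (animal numbers of 10000 and above). Directions turned in few cases. In the mice below 10000 the split gave 0.0239 for Malat1, 0.0238 for Neat1 and 0.0447 for Meg3, in neurons alone 0.40 for Neat1, −0.0865 for Snhg14 and −0.10 for Rian. Snhg14 was −0.11 with 10% against 5% and −0.0347 in the mice of 10000 and above. Leaving out each mouse, Miat ranged from −0.21 to 0.0476, the latter without cKO uninjured replicate 2. Meg3 in Cluster 7 between genotypes was −0.0655 in the mice of 10000 and above and ranged from −1.61, without cKO 1 d replicate 2, to 1.66. Meg3 after injury in Cluster 6 ranged from 0.58 to 4.18. The causes were not tested. The subsets by animal number, the neuron cluster alone, the split without Clusters 2, 5 and 7, and the fits without shared barcodes were chosen after seeing the data. In small clusters and shallow mice, counts of the rarer members limit what could be detected.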

Other observations

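The single cell of WT 1 d replicate 2 had Malat1 at 18797 CPM and 0 UMIs of the other members. It belongs to no comparison.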
